A study of Mus musculus with 10 samples.

Results

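The tumour necrosis factor (TNF) superfamily was followed in RNA-seq counts of mouse tracheal epithelial organoids. They were grown from epithelial cells that carried a Mettl3 knockout (labelled M3-CKO) or did not (labelled Ctrl). Members were taken by symbol: rows named as numbered Tnfsf ligands or Tnfrsf receptors, plus 13 genes with names of their own, such as Tnf, Ltb and Fas. The rule found 37 of the 22457 genes in the table, 13 ligands and 24 receptors. Fasl and Cd40 are named in the rule but have no row, so no level can be given for them. Of the 37 members, 24 had enough counts to be tested, 7 ligands and 17 receptors.

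Both groups were unsorted epithelial cells peeled from dissected tracheas (dispase, DNase I, then trypsin), embedded in Matrigel and harvested on day 14, with 3 libraries per group. The culture media, shared by both groups, held epidermal growth factor, retinoic acid, cholera toxin, bovine pituitary extract, insulin and transferrin. The first of them also held FBS and the inhibitors A83-01 and DMH-1, with Y-27632 in the first days, and the differentiation medium held bovine serum albumin instead. Strain, age and sex of the mice, the Cre driver, the deleted part of Mettl3 and the origin of the replicates (separate animals or not) are not given in the sources used. The p-values therefore cover no more than the scatter of these libraries, which can be technical. Libraries held 8906375 to 10485922 counts. The replicates M3-CKO 1 and 2 lay close together, and M3-CKO replicate 3 stood apart from them in many genes: 23.7% of all 13528 tested genes differed by over 2-fold between it and the mean of the other two. Most results that rest on it are given with and without it. Mettl3 RNA in M3-CKO was 61.4% of the Ctrl level (log2 fold change -0.70, SE 0.21, edgeR adjusted p = 0.12 and 0.043 without M3-CKO replicate 3), and the groups did not overlap. All epithelial and basal cell markers looked up were detected (Epcam, Cdh1, Krt8, Krt18, Krt5, Krt14, Krt15, Trp63, Ngfr, Pdpn).

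TNF superfamily ligands are membrane proteins that assemble as trimers and act at the cell surface or after being cut off by proteases. Their receptors carry cysteine-rich repeats outside the cell. Some have a death domain inside, which can recruit caspases, others bind TRAF adaptors and feed NF-kB and JNK signalling, and decoy receptors bind ligand without a full signalling tail. In airway epithelium TNF is known as an inducer of NF-kB-driven cytokine genes, and most other ligands of the family are best known from lymphocytes and myeloid cells.

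The promoter sequences of the 3 members that rose in M3-CKO and have an entry in the RefSeq promoter table (build GRCm38.p6, which is not the build used for counting) are shown because Ltb and Tnf are direct neighbours in the genome and both rose. Each is the 250 bases before the gene's start, written 5′ to 3′ along the gene, with capitals marking the loose NF-kB pattern GGGNNNNNCC on either strand. Overlapping matches run together in one stretch of capitals.
Ltb, chr17:35194257-35194506, plus strand: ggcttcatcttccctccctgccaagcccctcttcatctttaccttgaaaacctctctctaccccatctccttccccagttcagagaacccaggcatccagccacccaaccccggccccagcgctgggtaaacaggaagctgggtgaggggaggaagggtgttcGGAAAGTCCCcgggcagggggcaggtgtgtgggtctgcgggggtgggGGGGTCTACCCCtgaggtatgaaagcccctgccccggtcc
Tnf, chr17:35202008-35202257, minus strand: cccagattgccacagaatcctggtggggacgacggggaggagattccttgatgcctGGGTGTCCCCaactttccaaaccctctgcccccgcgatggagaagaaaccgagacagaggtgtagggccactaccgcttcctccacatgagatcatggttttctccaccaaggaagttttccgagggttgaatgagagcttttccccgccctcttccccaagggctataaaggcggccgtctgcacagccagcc
Tnfrsf11a, chr1:105780473-105780722, plus strand: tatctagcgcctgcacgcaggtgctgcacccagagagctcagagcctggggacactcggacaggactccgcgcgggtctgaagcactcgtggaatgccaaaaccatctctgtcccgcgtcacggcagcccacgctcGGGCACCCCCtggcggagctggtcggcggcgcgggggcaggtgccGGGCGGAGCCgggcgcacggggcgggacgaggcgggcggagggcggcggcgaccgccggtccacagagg
The Ltb window held 4 matches, of which 3 overlap in one stretch, the Tnf window 1 and the Tnfrsf11a window 2. The loose pattern was present in 45.8% of all 32851 promoter entries, so a match is common. The stricter kappa-B consensus was present in 3.90% of all entries and, of these 3 windows, in Ltb alone, at position -87 from the start. Tnfrsf19, the member that fell, has 2 entries with no match to either pattern. Of the 34 entries of members with a row, 23 held the loose pattern. They include Edar and Tnfsf13, both lower in M3-CKO without a call, and not Tnfsf15, which was higher. Whether matches go with the direction of change was not tested. Tnfsf9 and Tnfrsf22 have no entry. These are letter matches, and nothing was measured on binding.

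The tested members moved unevenly. M3-CKO organoids held more RNA of the ligands Tnf, Ltb and Tnfsf9 and of the receptors Tnfrsf22 and Tnfrsf11a, by 2.35-fold to 6.80-fold in mean level, and less of the receptor Tnfrsf19, at 29.0% of the Ctrl mean. These 6 of 24 tested members passed the edgeR quasi-likelihood test at an adjusted p under 0.05 over all genes (5 higher, 1 lower), where 2.91% of all tested genes passed, 1.74% higher and 1.16% lower. The log2 fold change was above 0 for 17 of 24 members, against 51.9% of all tested genes. An unadjusted p under 0.05 was reached by 9 of 24 members (7 higher, 2 lower), against 20.5% of all tested genes. Groups did not overlap for 9 of 24 members (6 higher, 3 lower), against 27.1% of all tested genes (13.7% higher, 13.5% lower). The median log2 fold change was 0.58 over the tested members and 0.02 over all tested genes. Every called member had at least 25 counts in every library, so none passed the low-count filter through one group alone. With 3 libraries against 3, the smallest two-sided exact permutation p for a single gene is 0.1, which each of the 6 reached.

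**Figure D1:**
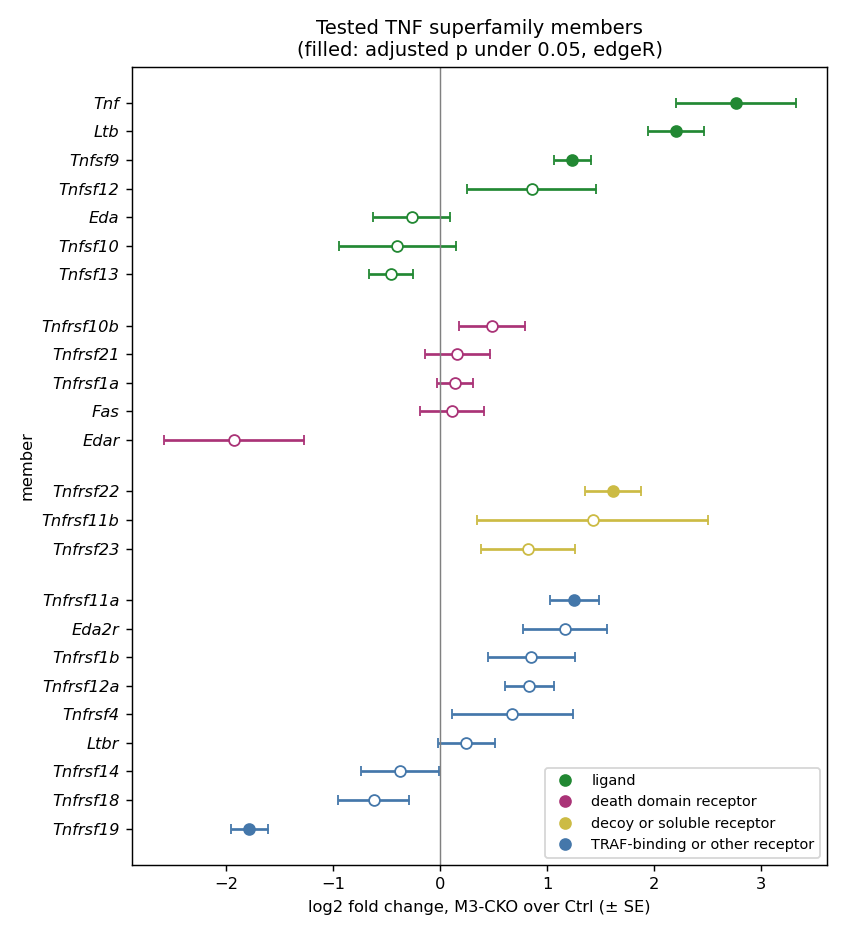
Log2 fold change of M3-CKO over Ctrl (x axis, bars are standard errors) for the 24 tested members, grouped by role, with filled points for members at an adjusted p under 0.05. Tnf, Ltb and Tnfsf9 lie farthest to the right among the ligands, at 2.76, 2.20 and 1.23, and Tnfrsf19 stands at -1.78.

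Ltb encodes lymphotoxin beta, which joins lymphotoxin alpha into a membrane-bound trimer that binds the lymphotoxin beta receptor. Its level was 2.95, 2.64 and 3.03 CPM (counts scaled to a common library size) in the 3 Ctrl replicates, in their order, and 11.5, 14.3 and 14.0 CPM in the M3-CKO ones. The groups lay far apart and M3-CKO replicate 3 sat with the other two. The change came to 2.20 on the log2 scale (SE 0.26, edgeR adjusted p = 0.018), and it stayed between 2.14 and 2.30 over the 6 fits that each left out 1 library, with adjusted p from 0.0015 to 0.13.

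Tnf, the founding ligand of the family and an inflammatory cytokine, stood at 4.26, 3.17 and 3.37 CPM in Ctrl. In M3-CKO it stood at 33.2 and 32.9 CPM in replicates 1 and 2 and at 7.32 CPM in replicate 3. The groups did not overlap, but replicate 3 lay much closer to Ctrl than to its group. The log2 fold change was 2.76 (SE 0.56, edgeR adjusted p = 0.048), and 3.19 (adjusted p = 2.0e-04) without M3-CKO replicate 3. By limma-voom the adjusted p was 0.15. Over the edgeR fits that each left out 1 library it ran from 2.0e-04 to 0.20.

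Lta, which encodes lymphotoxin alpha, is the third gene of this cluster, next to Tnf on the side away from Ltb. It had too few counts for the test, with 4 to 14 counts per library. Its counts were 6, 6 and 4 in Ctrl and 11, 14 and 9 in M3-CKO, so the groups did not overlap. In the fit without a low-count filter its log2 fold change was 1.01 (SE 0.72, edgeR adjusted p = 0.56). Strand handling in the counting is unstated, and reads from where neighbouring transcripts meet may have been dropped or shared.

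Tnfsf9 encodes the ligand of 4-1BB, a co-stimulatory receptor of T cells. Its level was 16.3, 14.3 and 16.4 CPM in Ctrl and 37.0, 35.7 and 37.6 CPM in M3-CKO. Spread within each group was small beside the gap between groups. The log2 fold change was 1.23 (SE 0.17, edgeR adjusted p = 0.023), between 1.17 and 1.27 when any 1 library was left out, with adjusted p from 0.0016 to 0.14. Tnfrsf9, the gene of its receptor, had 3, 2 and 0 counts in Ctrl and 0 in all 3 M3-CKO libraries. A count of 0 at this depth does not show that the RNA was absent.

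Among the other ligands, Tnfsf13, which encodes the B-cell factor APRIL, stood at 20.2, 20.3 and 22.9 CPM in Ctrl and 12.8, 16.1 and 17.1 CPM in M3-CKO. The groups did not overlap, but the difference was not called (log2 fold change -0.46, SE 0.21, edgeR adjusted p = 0.26). Tnfsf13 and its neighbour Tnfsf12, the gene of TWEAK, lie within a joint transcription unit in the annotation, so their counts are uncertain. Tnfsf12 was low, at 3 to 26 counts per library (log2 fold change 0.85, SE 0.60, adjusted p = 0.47). Tnfsf10, the gene of the death ligand TRAIL, was at 14.6, 16.5 and 15.9 CPM in Ctrl and at 12.2, 20.3 and 3.25 CPM in M3-CKO. M3-CKO replicates 1 and 2 lay on either side of Ctrl, and replicate 3 lay far below every other library (log2 fold change -0.40, SE 0.55, adjusted p = 0.74, and 0.04 without that library). Eda, which encodes ectodysplasin, a ligand of skin appendage development, was also lowest in M3-CKO replicate 3, at 4.27 CPM. It stood at 9.55 to 10.2 CPM in Ctrl and at 10.2 CPM in M3-CKO replicates 1 and 2. Its log2 fold change was -0.27 (edgeR adjusted p = 0.74), or 0.04 without replicate 3.

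Tnfsf15 encodes TL1A, the ligand of death receptor 3. It had 0, 2 and 2 counts in Ctrl and 22, 18 and 10 in M3-CKO, and the groups did not overlap. It missed the low-count filter of the main test. Through M3-CKO alone it met a fixed filter of 1 CPM in at least 3 libraries, which kept 13654 genes against 13528 in the main test. Under that filter the log2 fold change was 3.46 (SE 0.80, edgeR adjusted p = 0.065). Tnfsf15 was called when M3-CKO replicate 3 was left out (adjusted p = 0.012). Tnfrsf25, the gene of its receptor, had 0 to 10 counts per library. Of counts from 1 to 10, 69.7% to 72.1% were even numbers in each library, so low values here may rest on fewer fragments than the count says.

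The remaining untested ligands were near the floor. Tnfsf18, the ligand of GITR, had 0 to 8 counts per library, and Tnfsf13b, the B-cell survival factor BAFF, had 2 to 11. Tnfsf11, the gene of RANKL, had 2 counts in all 6 libraries together, and Cd70, the ligand of Cd27, had 1. Differences were not detectable at this depth.

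**Figure D2:**
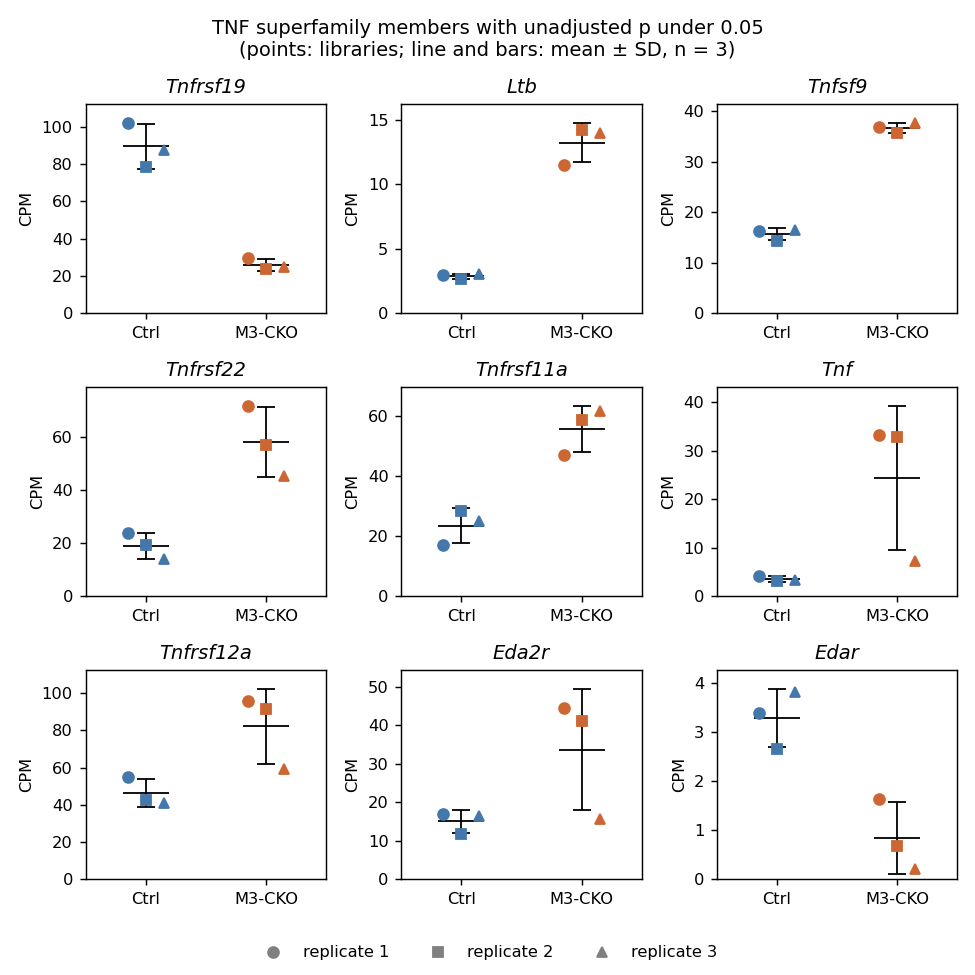
Level in CPM (y axis, from 0) of the 9 members with an unadjusted p under 0.05, with 1 point per library and the mean and SD of each group (n = 3). Ltb, Tnfsf9, Tnfrsf11a and Tnfrsf19 show M3-CKO replicate 3 among its group, whereas for Tnf it lies at 7.32 CPM against 33.2 and 32.9 CPM, and for Eda2r at 15.6 CPM, within the Ctrl range.

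Of the 5 tested receptors with a death domain, 0 passed the edgeR test and 1, Edar, had an unadjusted p under 0.05. DESeq2 also called 0 of the 5. Over all tested genes the shares were 2.91% by edgeR, 20.5% at that unadjusted p and 10.4% by DESeq2. Tnfrsf1a, the gene of the main receptor for soluble TNF, stood at 124, 96.9 and 91.5 CPM in Ctrl and 126, 101 and 117 CPM in M3-CKO, which overlap (log2 fold change 0.14, SE 0.17, adjusted p = 0.71). Fas, the receptor of Fas ligand and a p53 target, stood at 4.55 to 6.40 CPM in Ctrl and 5.13 to 6.92 CPM in M3-CKO (log2 fold change 0.11, SE 0.30, adjusted p = 0.88). Tnfrsf21, the gene of death receptor 6, was at 410.4, 316.3 and 364.6 CPM in Ctrl and at 493.4, 500.5 and 224.8 CPM in M3-CKO. Replicate 3 was below all Ctrl libraries and replicates 1 and 2 above them, and the difference was not called (log2 fold change 0.16, SE 0.30, edgeR adjusted p = 0.82, or 0.45 with adjusted p = 0.046 without replicate 3).

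Tnfrsf10b encodes the TRAIL receptor of mice that carries a death domain and is also a p53 target. It stood at 25.3, 26.1 and 27.2 CPM in Ctrl and at 42.6, 47.5 and 19.9 CPM in M3-CKO. As for Tnfrsf21, M3-CKO replicates 1 and 2 were above and replicate 3 below the Ctrl range. Its log2 fold change was 0.48 (SE 0.31, edgeR adjusted p = 0.43), or 0.78 (adjusted p = 0.0063) without replicate 3. Edar, the receptor of ectodysplasin A1, was low, at 31, 25 and 34 counts in Ctrl and 17, 6 and 2 in M3-CKO. The groups did not overlap, but Edar was not called (log2 fold change -1.93, SE 0.65, edgeR adjusted p = 0.15, and 0.070 in the fit lacking M3-CKO replicate 3).

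Mice carry the decoy TRAIL receptors Tnfrsf22 and Tnfrsf23 side by side, next to the related Tnfrsf26. Tnfrsf22 stood at 23.7, 19.1 and 14.0 CPM in Ctrl and at 71.7, 57.1 and 45.3 CPM in M3-CKO. Its lowest M3-CKO library was above its highest Ctrl library, with a log2 fold change of 1.61 (SE 0.26, edgeR adjusted p = 0.029) that ran from 1.43 to 1.81 when 1 library was left out (adjusted p 0.0016 to 0.15). Tnfrsf23 stood at 101, 45.5 and 68.6 CPM in Ctrl and at 164.9, 158.3 and 55.6 CPM in M3-CKO. Here M3-CKO replicate 3 fell within the Ctrl range (log2 fold change 0.82, SE 0.44, adjusted p = 0.35), and without it the value was 1.17 (adjusted p = 0.017). Tnfrsf26 had 0, 6 and 2 counts in Ctrl and 16, 9 and 6 in M3-CKO, too few to be tested. The genes are related in sequence and it is unstated how multiply matching reads were handled, so the split of reads among them is uncertain.

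The soluble decoy Tnfrsf11b, osteoprotegerin, had 6, 9 and 46 counts in Ctrl and 93, 77 and 4 in M3-CKO. One library in each group stood apart from the other two, in opposite directions (log2 fold change 1.42, SE 1.08, edgeR adjusted p = 0.51). Leaving out 1 library moved the value between 1.00 and 2.89, with adjusted p from 0.072 to 0.78; the lowest was without M3-CKO replicate 3.

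Tnfrsf19 was the member that fell. Known as TROY, it is an orphan-like receptor linked to Wnt signalling and marks stem cells in several epithelia. It stood at 102, 78.3 and 87.7 CPM in Ctrl and at 29.4, 23.6 and 24.7 CPM in M3-CKO. The M3-CKO libraries, replicate 3 included, lay close to each other and far below Ctrl, with a log2 fold change of -1.78 (SE 0.18, edgeR adjusted p = 0.0096) and a range of -1.89 to -1.67 over the fits without 1 library (adjusted p 6.7e-04 to 0.084). Basal cell keratins fell in the same libraries. The log2 fold changes were -2.23 for Krt15, -1.82 for Krt5 and -2.13 for Krt14 (edgeR adjusted p = 0.0083, 0.024 and 0.037), while Trp63, Ngfr and Pdpn were not called (-0.81, -0.75 and -0.06). The 6 basal cell markers summed to 1942 to 2386 CPM in Ctrl and 679.3 to 1094 CPM in M3-CKO. Their part in the Tnfrsf19 result was not tested, and in bulk RNA fewer cells of a type and less RNA per cell cannot be told apart.

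Tnfrsf11a, the gene of RANK, rose from 17.0, 28.3 and 24.8 CPM in Ctrl to 47.0, 58.5 and 61.4 CPM in M3-CKO. RANK signals through TRAF6 and is best known from osteoclasts and mammary epithelium. Replicate 3 was the highest M3-CKO library, and the log2 fold change was 1.25 (SE 0.23, edgeR adjusted p = 0.037), between 1.07 and 1.41 without any 1 library (adjusted p 0.0075 to 0.17). Its ligand gene Tnfsf11 had 2 counts in all.

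Tnfrsf12a encodes Fn14, the TWEAK receptor, which is induced in injured epithelia. It stood at 54.8, 42.7 and 41.0 CPM in Ctrl and at 95.9, 91.7 and 59.1 CPM in M3-CKO. The groups did not overlap, although replicate 3 lay nearer to Ctrl. The difference was not called by edgeR (log2 fold change 0.83, SE 0.23, adjusted p = 0.094) but was by DESeq2 (adjusted p = 0.024), and by edgeR once M3-CKO replicate 3 was left out (1.02, adjusted p = 0.0031). Its annotation overlaps that of Hcfc1r1, so the count is uncertain. Eda2r, a receptor of ectodysplasin A2 and a p53 target, stood at 17.0, 11.6 and 16.4 CPM in Ctrl and at 44.5, 41.0 and 15.6 CPM in M3-CKO. Its replicate 3 fell among the Ctrl libraries (log2 fold change 1.16, SE 0.39, adjusted p = 0.15, and 1.51 with adjusted p = 0.0017 without it).

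Tnfrsf1b encodes the second TNF receptor, which binds TRAF2 and has no death domain. Its level was 82.2, 52.8 and 83.7 CPM in Ctrl and 180.4, 156.7 and 57.4 CPM in M3-CKO. Again replicates 1 and 2 were high and replicate 3 was within the Ctrl range (log2 fold change 0.85, SE 0.40, edgeR adjusted p = 0.29, and 1.21 with adjusted p = 0.0044 without replicate 3). Ltbr, the lymphotoxin beta receptor, showed another order, with 97.2 to 139.7 CPM in Ctrl, 117 and 97.7 CPM in M3-CKO replicates 1 and 2 and 181.6 CPM in replicate 3 (log2 fold change 0.24, SE 0.26, adjusted p = 0.66). Tnfrsf4, the gene of the T-cell receptor OX40, was also highest in replicate 3, at 14.0 CPM against 3.67 and 3.77 CPM in the others and 3.38 to 5.05 CPM in Ctrl (log2 fold change 0.67, adjusted p = 0.56, and -0.27 without replicate 3). Its annotation overlaps that of Sdf4, so the count is uncertain.

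Tnfrsf14, the herpesvirus entry mediator, was at 22.1 to 31.2 CPM in Ctrl and at 23.2, 25.3 and 9.66 CPM in M3-CKO. Its log2 fold change was -0.38 (edgeR adjusted p = 0.61), or -0.06 without M3-CKO replicate 3. Tnfrsf18, the gene of GITR, was at 6.55 to 10.6 CPM in Ctrl and 4.07 to 6.96 CPM in M3-CKO (adjusted p = 0.34). Groups overlapped for both. Of the untested receptors, Relt had 4 to 9 counts per library, and the lymphocyte receptors Cd27, Tnfrsf8 and Tnfrsf13c had at most 4.

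**Figure D3:**
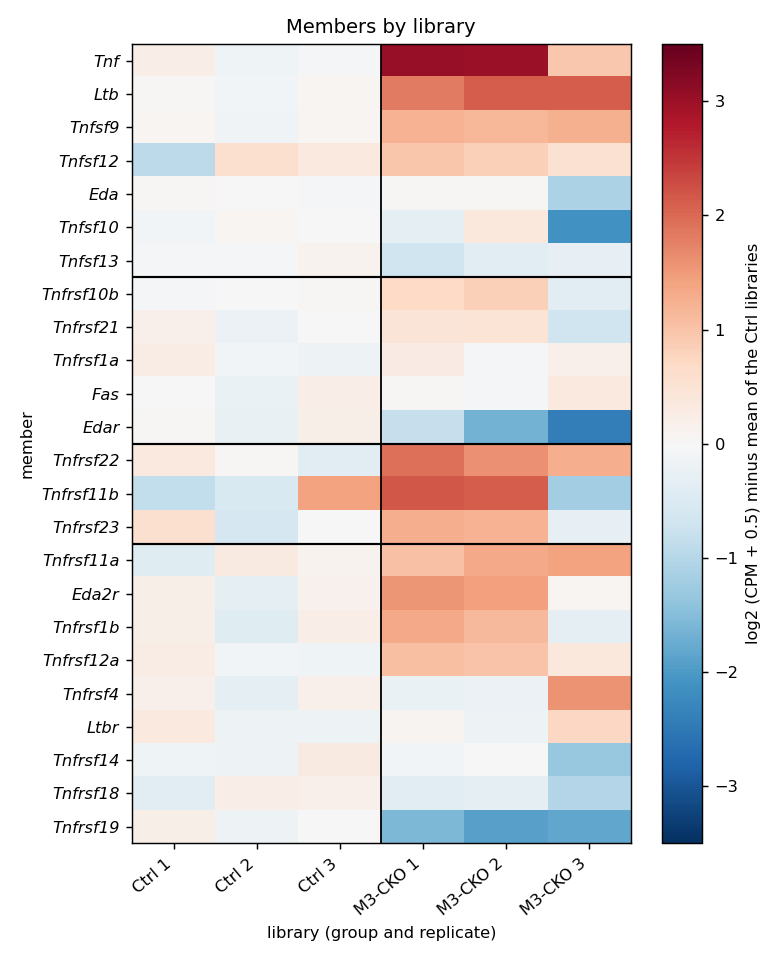
Level of each tested member (rows, grouped as ligands, death domain receptors, decoy receptors and other receptors) in each library (columns), as log2 of CPM + 0.5 minus the mean of the Ctrl libraries on that scale. Ltb, Tnfsf9, Tnfrsf22, Tnfrsf11a and Tnfrsf19 keep 1 colour in all 3 M3-CKO columns, while Tnfrsf1b, Tnfrsf23, Tnfrsf10b and Tnfrsf21 change side in the third.

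M3-CKO replicate 3 divided the family. Over 2-fold differences between it and the mean of M3-CKO replicates 1 and 2 were found for 12 of 24 tested members, against 23.7% of all tested genes. In 11 of these 12 replicate 3 was the lower one (Tnf, Eda, Tnfsf10, Edar, Tnfrsf10b, Tnfrsf21, Tnfrsf23, Tnfrsf11b, Eda2r, Tnfrsf1b and Tnfrsf14), where 13.6% of all tested genes were lower by that much, and Tnfrsf4 was higher. Without this library 13 of 25 tested members were called, 12 higher and 1 lower, against 25.0% of all tested genes in that fit. They were the 6 called with all libraries plus Tnfrsf1b, Tnfrsf10b, Tnfrsf12a, Tnfrsf21, Tnfrsf23, Eda2r and Tnfsf15, all higher in M3-CKO. Tnfsf15 was tested in that fit but not with all libraries, and had to differ, since it passed the low-count filter through M3-CKO alone. Of the 24 members tested with all libraries, 12 were called (11 higher, 1 lower). By direction, 13.7% of all tested genes were higher and 11.3% lower in that fit. Over all genes, log2 CPM of M3-CKO replicates 1 and 2 correlated at r = 0.990, and replicate 3 with them at 0.930 and 0.920. The Ctrl pairs correlated at 0.9742 to 0.9825. Fits without replicate 3 thus rest on an M3-CKO pair more alike than any Ctrl pair, and the reason was not tested.

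All 6 called members lost their call when any 1 Ctrl library was left out. In those fits edgeR called 0, 1 and 0 genes in all (0%, 0.00716% and 0% of those tested) without Ctrl replicates 1, 2 and 3. An unadjusted p under 0.05 was reached by 9 of 25 tested members in each. Over all genes it was reached by 2378 of 14014, 2044 of 13962 and 1963 of 13955. In each of these fits the 9 include Tnfsf15. That gene had to differ, since it passed the low-count filter there through M3-CKO alone. Tnfrsf19 kept its call without M3-CKO replicate 1, where 0.101% of all genes were called, and the other 5 lost theirs. All 6 lost it without M3-CKO replicate 2, where 0.129% were called. All 6 kept their direction in these 6 fits. With all libraries, the same 6 were called after scaling by DESeq2 size factors (3.01% of all tested genes called), without a low-count filter (3.30%) and with the fixed 1 CPM filter (2.86%). The DESeq2 Wald test added Tnfrsf12a (10.4%), and limma-voom lost Tnf (2.23%).

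Genes of signalling downstream of the receptors, of ligand and receptor shedding and of Tnf mRNA decay were read from 6 lists. The lists held 69 genes in all, of which 67 were tested. With all libraries 2 were called by edgeR, both higher, which is 2.99% against 2.91% of all tested genes. An unadjusted p under 0.05 was reached by 14 of 67, against 20.5% of all tested genes. The median log2 fold change was 0.06, against 0.02 over all tested genes. DESeq2 called 8 (6 higher, 2 lower), 11.9% against 10.4% of all genes in that test (6.05% higher, 4.31% lower). Without M3-CKO replicate 3 edgeR called 22 of 67 (19 higher, 3 lower), 32.8% against 25.0% of all tested genes in that fit.

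Both called genes belong to the 9 genes of ligand and receptor shedding. Timp3, an inhibitor of ADAM17, the protease that releases soluble TNF, rose from 580.3, 606.4 and 626.3 CPM in Ctrl to 1381, 1416 and 1400 CPM in M3-CKO. The libraries of each group, replicate 3 included, lay close together (log2 fold change 1.21, SE 0.15, edgeR adjusted p = 0.019). Adam10, a related surface protease, rose from 212, 265.7 and 234 CPM to 420.3, 420.7 and 373 CPM (0.77, SE 0.15, adjusted p = 0.047). Both lost their call without any 1 library other than M3-CKO replicate 3, with adjusted p up to 0.14 for Timp3 and 0.21 for Adam10. Adam17 itself was at 110.5 to 129.6 CPM in Ctrl and 137.7 to 158 CPM in M3-CKO, not called (0.35, SE 0.14, adjusted p = 0.22). The median of the 9 genes was 0.28.

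**Figure D4:**
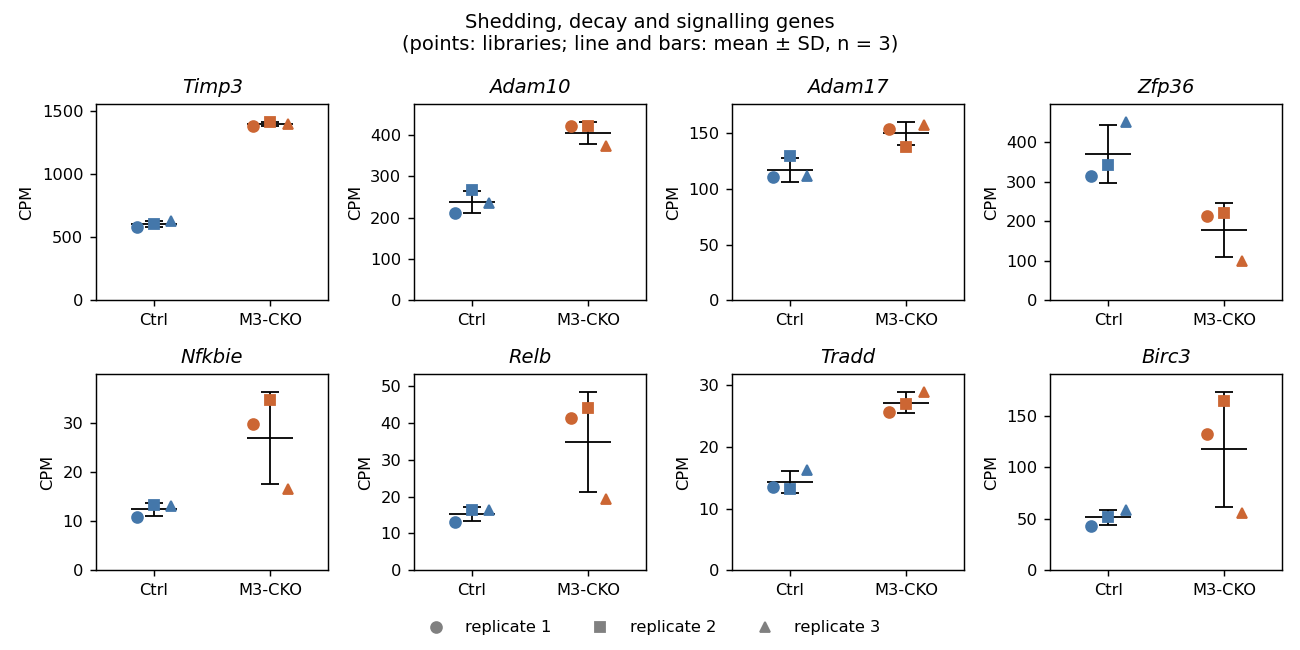
Level in CPM (y axis, from 0) of 8 genes of shedding, Tnf mRNA decay and signalling, with 1 point per library and mean and SD per group (n = 3). Timp3 stands at 1381 to 1416 CPM in M3-CKO, above every Ctrl library, and Birc3 at 55.3 CPM in M3-CKO replicate 3 lies within the Ctrl range.

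The death domain complex list had 12 genes with a median of 0.14. By edgeR 0 of them passed, DESeq2 called 2, and 5 reached an unadjusted p under 0.05. Over all tested genes these shares were 2.91%, 10.4% and 20.5%, which also apply to the lists below. Tradd, the adaptor of the first TNF receptor, stood just outside the threshold, at 13.1 to 16.3 CPM in Ctrl and 25.6 to 28.9 CPM in M3-CKO (log2 fold change 0.92, SE 0.19, edgeR adjusted p = 0.051), and it was called by DESeq2 (adjusted p = 0.0011). Birc3, an inhibitor of apoptosis that NF-kB induces, was at 43.5 to 58.5 CPM in Ctrl and at 132, 164.2 and 55.3 CPM in M3-CKO (1.19, SE 0.37, adjusted p = 0.13, and 1.52 with adjusted p = 8.1e-04 without replicate 3). Of 13 tested TRAF adaptors and ubiquitin genes, 0 were called by edgeR or by DESeq2 and 2 had an unadjusted p under 0.05, with a median of 0.27: Tank, a TRAF-binding protein (0.48, adjusted p = 0.16), and Traf5 (-1.03, adjusted p = 0.18). Of 12 kinases 0 were called by either tool and 0 had an unadjusted p under 0.05, with a median of 0.02. The lowest adjusted p was 0.42, for Mapk14 (-0.29), which encodes p38 alpha, and it was 0.43 for Tab2 (0.36), an adaptor of the TAK1 kinase. Without M3-CKO replicate 3, where 25.0% of all tested genes were called, 3 of the 12 death domain complex genes, 5 of the 13 TRAF and ubiquitin genes and 3 of the 12 kinases were called. Among them were Tank (0.59, adjusted p = 0.010), Tab2 (0.57, adjusted p = 0.0076) and Mapk14 (-0.47, adjusted p = 0.025).

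Of 16 tested NF-kB response genes, 0 were called by edgeR (2.91% of all tested genes were). An unadjusted p under 0.05 was reached by 5 of the 16 (20.5% of all tested genes). DESeq2 called 4, of which 3 were higher and 1 lower (10.4% of all tested genes), and the median was 0.27. Nfkbie, an inhibitor that NF-kB induces, was at 10.9 to 13.3 CPM in Ctrl and 29.8, 34.6 and 16.5 CPM in M3-CKO (log2 fold change 1.11, SE 0.30, edgeR adjusted p = 0.092). Relb, an NF-kB subunit, was at 13.0 to 16.4 CPM in Ctrl and 41.2, 44.0 and 19.3 CPM in M3-CKO (1.19, SE 0.32, adjusted p = 0.092). Both had M3-CKO replicate 3 nearest to Ctrl, as Tnf did. Both were among the 8 of the 16 genes (7 higher, 1 lower) called without it. In that fit the log2 fold change was 1.36 for Nfkbie (edgeR adjusted p = 0.0017) and 1.48 for Relb (edgeR adjusted p = 9.7e-04). That fit called 25.0% of all tested genes, 13.7% higher and 11.3% lower. The list was mixed, with 10 log2 fold changes above 0 and 6 below. Lcn2, the gene lower by DESeq2, stood at 55.1% of the Ctrl mean (edgeR adjusted p = 0.13). Sod2, the gene lower without replicate 3, stood at 77.8% (adjusted p = 0.27). Groups did not overlap for either, and Icam1 stood at 99.1% (adjusted p = 0.97). Of 9 factors that act on Tnf mRNA decay, 0 were called by edgeR (2.91% of all tested genes), with a median of 0.01. An unadjusted p under 0.05 was reached by 1 (20.5% of all tested genes), and 1 was called by DESeq2 (10.4%). That gene was Zfp36, tristetraprolin, which binds Tnf mRNA and speeds its decay, at 314, 342 and 451.5 CPM in Ctrl and 213, 219.6 and 97.9 CPM in M3-CKO (-1.06, SE 0.32, edgeR adjusted p = 0.12, or -0.77 with adjusted p = 0.013 without replicate 3, and DESeq2 adjusted p = 0.023). Its relative Zfp36l1 had a log2 fold change of -0.49 (edgeR adjusted p = 0.33).

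Leukocytes are the usual source of several of these ligands. Of 14 leukocyte markers looked up, 6 have a row. Ptprc, which encodes the pan-leukocyte antigen CD45, had 2 counts in Ctrl replicate 2 and 0 in the other libraries. Itgam was detected, with 43, 88 and 85 counts in Ctrl and 39, 46 and 4 in M3-CKO (log2 fold change -1.32, SE 0.73, edgeR adjusted p = 0.36). Csf1r was not tested, with 2, 7 and 6 counts in Ctrl and 33, 12 and 6 in M3-CKO. S100a8 had 0 to 2 counts per library. The 6 markers summed to 535.9 to 1434 CPM in Ctrl and 457.2 to 792.8 CPM in M3-CKO, mostly from Lyz2 and Cd68, which epithelial cells can also express, and these ranges overlap. The sums of 4 mesenchymal markers reached at most 12.7 CPM and those of 3 endothelial markers at most 1.14 CPM. Their part in the results was not tested.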

How the data were processed

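RNA-seq counts of 6 libraries (3 Ctrl, 3 M3-CKO) were used. The m6A immunoprecipitation and input libraries named in the labels (4) were not analysed here. The authors deposited whole-number counts per gene symbol, not normalized. The authors made them with featureCounts after HISAT2 and Trim Galore, on build mm39, per the submitters' processing notes. Versions, annotation, strand setting and the handling of multiply matching reads: not given in the sources used here. The even-number excess among low counts was computed from the deposited table.

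Counts were tested with edgeR 4.0.16 in R 4.3.3 over the 13528 genes that filterByExpr kept, with TMM scaling and the two-sided quasi-likelihood test (no covariate). P-values were adjusted by Benjamini-Hochberg over all of these genes, with a threshold of 0.05. Where no tool is named, an adjusted p is edgeR's. CPM uses TMM-scaled library sizes. Standard errors are the size of the log2 fold change over the square root of F. Gene lengths were not used, so levels were not compared between genes. Alternatives were DESeq2 1.42.0 (size factors, and the Wald test), limma-voom (limma 3.58.1), other low-count filters, a replicate block, and leaving out each library. Gene neighbours and promoters came from RefSeq tables on GRCm38.p6, where all 37 members matched by symbol (30 have a promoter entry).

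Members and lists were chosen with earlier results of these data known. Values are given for Mettl3, members with an unadjusted p under 0.05, a fixed set of members (Tnf, Tnfrsf1a, Tnfrsf1b, Fas, Ltbr, Cd40, Tnfsf10, Tnfrsf10b, Tnfrsf11b, Tnfrsf12a, Tnfrsf19, Tnfrsf21) and, of each list, the called genes or the 2 with the lowest p. Other members and genes named with values were chosen after their values were seen. One neighbouring gene is not reported here.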

Additional observations from a re-analysis of the deposited data

How the results depend on the processing

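The number of called members was 6 with DESeq2 size factors, without a low-count filter and with the fixed 1 CPM filter. It was 7 by the DESeq2 Wald test and 5 by limma-voom, which lost Tnf. The number of all genes called was 393 with all libraries, 1402 by the Wald test and 740 without a low-count filter. Of the pathway genes, 2 were called with all libraries and 8 by the Wald test. Same-numbered libraries did not deviate together (r of deviations from the group means -0.02, 0.02 and -0.11). With 3 libraries per group this cannot decide whether a replicate number marks a shared animal or day. With the replicate number as a block, 20 genes, 0 members higher, 1 member lower (Tnfrsf19) and 0 pathway genes were called (0.148% of all genes, 0.0887% higher and 0.0591% lower). Leaving out 1 library at a time gave 0 to 3483 genes called, 0 to 12 members higher, 0 to 1 member lower, 9 to 17 members whose groups do not overlap (37.5% to 68.0% of those tested, against 30.7% to 56.8% of all genes in the same fits), and 0 to 22 pathway genes called (at most 32.8%, against 25.0% of all genes in that fit). The highest counts came without M3-CKO replicate 3 (shared with the fit lacking M3-CKO replicate 1 for members lower). For members higher and for groups that do not overlap, they include Tnfsf15, which passed the low-count filter there through M3-CKO alone. Of the 24 members tested with all libraries, 11 were called higher in that fit. The sign changed in such fits for uncalled members only: Tnfsf10 (-1.0 to 0.041), Ltbr (-0.062 to 0.44), Tnfrsf21 (-0.0034 to 0.45), Fas (-0.032 to 0.24), Eda (-0.46 to 0.041) and Tnfrsf4 (-0.27 to 0.99). The causes were not tested. Depth limits the 13 untested members, none of which passed 22 counts in a library.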

Other observations

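Some protein-coding neighbours of the called members that lie outside the family were also read. Lst1, next to Ltb, was near 0 and not tested. Mipep, next to Tnfrsf19, was not called (log2 fold change -0.14, SE 0.27, edgeR adjusted p = 0.83). Relch and Zcchc2, on either side of Tnfrsf11a, had log2 fold changes of -0.30 and 0.31 and were not called (edgeR adjusted p = 0.28 and 0.37). Tubb4a, next to Tnfsf9, was not called either (1.71, SE 0.86, adjusted p = 0.31). These genes were chosen by position, after the values of the members were seen.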
